A study of Mus musculus with 8 samples.

Results

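The genes described here are 39 that encode the machinery of DNA replication and of S phase, the part of the cell cycle in which the genome is copied. They were chosen by symbol, for the known function of their products, but with earlier results of these data known. The same holds for the further lists below. Their shares against all genes thus describe sets not chosen blind to these data. All 39 of 39 were among the 24976 genes of the deposited count table, and all 39 passed the filter on low counts, which left 13073 genes for testing. The genes were grouped into 9 roles, from the helicase ring to the cyclins and transcription factors that time the start of copying.

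Before S phase the origin recognition complex, Cdc6 and Cdt1 load rings of Mcm2 to Mcm7 onto DNA, a step called licensing. Cdc45 and the GINS proteins then turn the loaded rings into running helicases, primase and DNA polymerases copy the strands on the sliding clamp PCNA, and enzymes such as ribonucleotide reductase and thymidine kinase supply the nucleotides. Cyclin E drives entry into S phase, E2F transcription factors switch on many of these genes together, and CD8 T cells that divide after meeting antigen use the same machinery.

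RNA was sequenced in bulk from CD8 T cells that had infiltrated tumours of B16-OVA, a mouse melanoma line that makes the model antigen ovalbumin. The tumours grew in Rag2-/- mice, which lack T and B cells of their own but keep natural killer and myeloid cells, and which received the donor CD8+ T cells 10 days after the tumour cells. Donors were WT or, by the design text, Cd8Cre NR4a1flox/flox NR4a2flox/flox with the OT-ITg/+ receptor for ovalbumin. The sample titles name the second genotype Nr4a dKO, and its libraries are called labelled dKO here. The Cre is named for Cd8, so deletion depends on its activity in the donor's T cells. The labels give neither the age of the animals nor whether the WT donors also carried OT-I. On day 10 of the transfer, CD3e+CD8+ cells were split by sorting into a PD1+Tim3- and a PD1+Tim3+ population, where PD1 and Tim3 are inhibitory receptors of exhausted T cells. A sample holds the cells of 1 implanted mouse, and there are 2 libraries for either genotype in either population, 8 in all. They are called Tim3- and Tim3+ libraries below.

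To show what these genes share beyond their roles, their promoter sequences were searched for the letters that E2F proteins bind. The RefSeq table of promoters (GRCm38.p6, 250 bases before and 50 after each start) held windows for 34 of the 39 genes. Searched on both strands were the 8-letter words TTTGGCGC, TTTCCCGC, TTTCGCGC and TTTGCCGC, which overlap one another in part. At least 1 of them stood in the windows of 12 of the 34 genes, or 35.3%, against 704 of all 27025 genes in the table, or 2.60%. The same 4 words without their first T, 7 letters long, were in 21 of 34 genes, or 61.8%, against 10.9% of all genes. The box CCAAT, also read on both strands, was in 20 of 34 genes, or 58.8%, against 41.1%. A match describes the letters and is not evidence of a bound site. The windows below are from those of the 12 genes that passed a comparison described later, and from Mcm6, which did not. Mcm7, Pola1, Pold1 and Rfc3 also hold such a word, but passed no comparison in the fit of all 8 libraries and are not shown. Windows are cut to the match and up to 10 bases on either side, with the 8-letter word in capitals.
Mcm3, chr1:20820276-20820303, reverse strand: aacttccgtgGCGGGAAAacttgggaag
Mcm5, chr8:75109346-75109373, forward strand: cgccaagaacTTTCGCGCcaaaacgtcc
Mcm6, chr1:128359735-128359762, reverse strand: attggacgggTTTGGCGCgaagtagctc
Mcm6, chr1:128359798-128359825, reverse strand: ggcgtatgctTTTGGCGCgaaaagtgcg
Orc1, chr4:108579417-108579444, forward strand: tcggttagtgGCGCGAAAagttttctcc
Cdc6, chr11:98908003-98908030, forward strand: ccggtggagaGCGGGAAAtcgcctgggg
Cdt1, chr8:122568037-122568064, forward strand: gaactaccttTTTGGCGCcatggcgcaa
Lig1, chr7:13278842-13278869, forward strand: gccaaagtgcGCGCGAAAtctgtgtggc
E2f2, chr4:136172303-136172323, forward strand: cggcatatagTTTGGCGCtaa
Starts here are those of the RefSeq table, and for E2f2 and Tk1, among others, they differ from the gene positions given later. By these starts the word lies before the start in Cdc6, Mcm5, Mcm6 and Orc1. In Mcm3, Cdt1, Lig1 and E2f2 it lies within the first 50 transcribed bases. Mcm3, Mcm5 and Mcm6 hold more than 1 such word, not all shown. Rrm2, Rpa2, Chaf1a and Tk1, the genes whose population difference in WT passed with any library left out, hold no 8-letter word. Cdc45 and Dut, also among the genes with the smallest p, hold neither an 8-letter nor a 7-letter word and are not shown. The 250 bases before the start of Rrm2, Rpa2 and Chaf1a hold 7-letter words, in capitals below, as is each CCAAT box.
Rrm2, chr12:24708004-24708253, forward strand: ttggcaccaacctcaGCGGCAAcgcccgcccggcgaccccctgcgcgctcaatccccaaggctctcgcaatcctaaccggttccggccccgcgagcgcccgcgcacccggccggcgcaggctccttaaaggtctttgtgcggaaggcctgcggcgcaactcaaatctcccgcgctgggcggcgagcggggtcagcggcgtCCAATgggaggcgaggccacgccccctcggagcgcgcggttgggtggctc
Rpa2, chr4:132768110-132768359, forward strand: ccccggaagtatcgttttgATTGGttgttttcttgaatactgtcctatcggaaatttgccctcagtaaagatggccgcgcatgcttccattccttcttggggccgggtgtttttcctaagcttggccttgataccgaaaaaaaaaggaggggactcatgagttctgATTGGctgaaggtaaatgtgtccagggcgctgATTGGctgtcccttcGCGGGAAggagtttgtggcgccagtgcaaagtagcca
Chaf1a, chr17:56040166-56040415, forward strand: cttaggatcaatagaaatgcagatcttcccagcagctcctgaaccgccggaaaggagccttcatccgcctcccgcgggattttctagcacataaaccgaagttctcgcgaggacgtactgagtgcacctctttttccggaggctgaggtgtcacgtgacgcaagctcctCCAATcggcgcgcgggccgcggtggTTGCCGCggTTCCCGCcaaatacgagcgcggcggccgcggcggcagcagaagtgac
Those of Tk1 and Ccne1, the latter chosen after its values were seen, hold neither, and are shown without capitals because Tk1 rose and Ccne1 fell in the comparisons below.
Tk1, chr11:117826015-117826264, reverse strand: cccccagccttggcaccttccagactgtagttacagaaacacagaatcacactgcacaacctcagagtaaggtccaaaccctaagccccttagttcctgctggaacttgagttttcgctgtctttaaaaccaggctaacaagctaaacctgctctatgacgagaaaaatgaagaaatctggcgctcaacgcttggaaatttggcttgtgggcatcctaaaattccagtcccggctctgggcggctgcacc
Ccne1, chr7:38107491-38107740, reverse strand: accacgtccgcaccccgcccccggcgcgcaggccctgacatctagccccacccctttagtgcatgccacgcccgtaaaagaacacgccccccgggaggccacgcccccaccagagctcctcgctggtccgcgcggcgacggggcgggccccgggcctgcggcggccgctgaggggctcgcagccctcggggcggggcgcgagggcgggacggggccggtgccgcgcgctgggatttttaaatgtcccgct
The 12 genes with an 8-letter word had median log2 fold changes of 0.46 in WT and 0.55 in libraries labelled dKO (Tim3+ against Tim3-), and the 22 without it 0.50 and 0.57. Split by the 7-letter words, the 21 genes with a match had medians of 0.51 and 0.57, and the 13 without one 0.44 and 0.42. Neither difference between medians was tested.

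Levels are given as CPM, counts scaled to the normalised library size. Per kilobase of exon, averaged over the 8 libraries, the clamp gene Pcna was highest at 149 CPM per kilobase. Ccne1 followed at 56.5, Dut at 48.5, Cdt1 at 31.1, Mcm3 at 25.6 and Mcm6 at 22.9 CPM per kilobase. The lowest were Cdc6 at 1.21, Mcm10 at 0.850 and E2f8 at 0.388 CPM per kilobase. The sources do not say which part of a transcript the counts cover, so this order between genes holds only if coverage is even. The name of the deposited table hints at sequencing of transcript starts, in which case dividing by exon length would not apply.

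Total counts of the 8 libraries ran from 1944999, in replicate 2 of Tim3- labelled dKO, to 13418762, in replicate 2 of WT Tim3+. The targeted gene Nr4a1 was not lower in the libraries labelled dKO. It stood at 979 and 824 CPM in WT Tim3-, 1331 and 1489 in Tim3- labelled dKO, 803 and 789 in WT Tim3+, and 1194 and 1175 in Tim3+ labelled dKO. Nr4a2 stood between 929 and 1034 CPM in all 8 libraries, so neither gene bears out the label, and all genotype directions are those of the labels. Which exons are flanked by loxP sites is not stated, and counts outside the deleted part would check nothing. The sort was borne out: Havcr2, which encodes Tim3, stood at 2.28 to 3.62 CPM in Tim3- and at 41.8 to 58.2 in Tim3+ libraries. Cd8a stood at 854 to 1223 CPM and Cd4 at no more than 0.525. The 8 melanoma markers summed to 20.5 to 23.8 CPM in every library, mostly Tyr, with Sox10 at or near 0. Markers of macrophages summed to 6.30 to 16.2 CPM, mostly Cd68, with Csf1r at no more than 0.905. Those of B cells summed to 2.62 to 6.10 CPM with Ms4a1 at 0, and those of fibroblasts and endothelium to 21.5 to 37.3. Dendritic markers summed to 25.5 to 33.6 CPM in Tim3- and 48.6 to 55.3 in Tim3+ libraries, almost all Itgax, with Clec9a at or near 0. Erythroid markers summed to 8.10 and 3.52 CPM in WT Tim3- and 33.5 and 6.43 in WT Tim3+. In libraries labelled dKO they summed to 3.80 and 3.67 CPM in Tim3- and 109 and 33.1 in Tim3+. All 4 tested erythroid genes passed the test described below as higher in Tim3+ labelled dKO, with a median log2 fold change of 4.70. In WT 0 passed, with a median of 1.34. Ribosomal RNA (Rn45s and Rn18s) made up 1.60% to 2.37% of counts in Tim3- and 6.52% to 8.36% in Tim3+ libraries. The part of the dendritic, erythroid and ribosomal RNA counts in the results below was not tested.

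Replication genes took a larger share of the counts in Tim3+ than in Tim3- cells of both genotypes. The 39 genes took 0.151% and 0.165% of all counts in WT Tim3- and 0.197% and 0.205% in WT Tim3+. In libraries labelled dKO they took 0.173% and 0.183% in Tim3- and 0.213% and 0.205% in Tim3+. All 4 Tim3+ libraries thus stood above all 4 Tim3- libraries, although Pcna alone made up 16.8% to 21.1% of these counts. Relative to each gene's mean over the 8 libraries, the median of the 39 genes was -0.38 and -0.16 on the log2 scale in WT Tim3-, -0.18 in both Tim3- libraries labelled dKO, 0.12 and 0.22 in WT Tim3+, and 0.32 and 0.36 in Tim3+ labelled dKO. Of the 39 genes, 20 had their lowest value in replicate 1 of WT Tim3-, and 29 their highest in a Tim3+ library labelled dKO, 13 in replicate 1 and 16 in replicate 2. In bulk samples a smaller share of cells in S phase and less RNA per cell cannot be told apart.

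**Figure D1:**
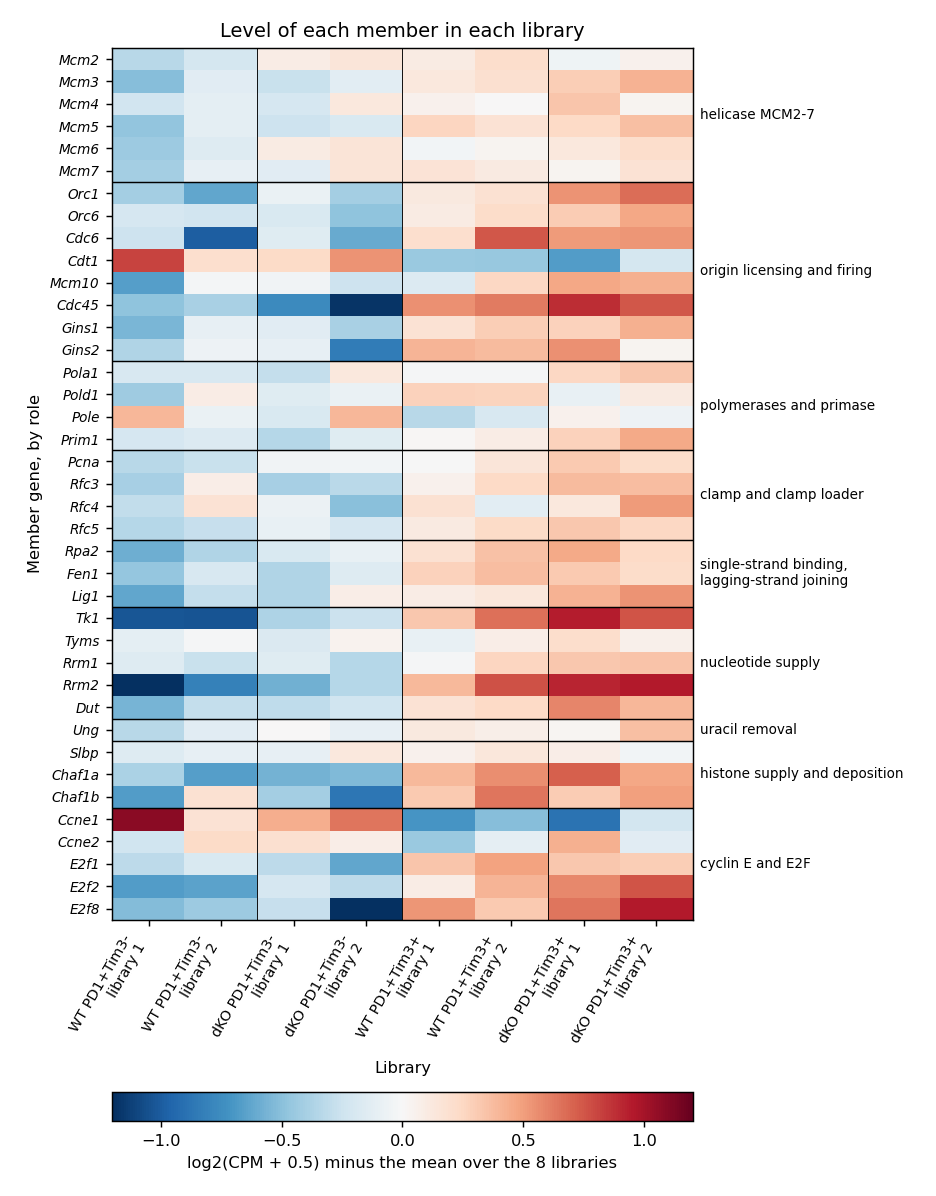
Level of each of the 39 genes (rows, grouped by role) in each of the 8 libraries (columns), as log2(CPM + 0.5) minus the gene's mean over the libraries, with red above and blue below that mean; values beyond the ends of the colour bar take the end colour. Most rows turn from blue in the 4 Tim3- libraries to red in the 4 Tim3+ libraries, while Cdt1 and Ccne1 run the other way.

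In WT, 19 of the 39 genes passed the test between Tim3+ and Tim3- cells, 17 higher and 2 lower in Tim3+, where 17% of all 13073 genes passed, 8.25% higher and 8.76% lower. Genes passed at a Benjamini-Hochberg adjusted p under 0.05 in edgeR's quasi-likelihood test, the source of all adjusted p-values here unless another tool is named. The fold change was positive for 35 of 39 genes, against 51.2% of all genes, and the median log2 fold change was 0.48, against 0.01 over all genes. Both Tim3+ libraries stood above both Tim3- libraries for 31 genes and below them for 3, against 32.7% and 30.3% of all genes. In each of the fits named next the calls over all genes fell as well. The count of 19 fell to 6 without replicate 1 of WT Tim3-, to 7 without replicate 1 of WT Tim3+ and to 4 without replicate 2 of WT Tim3+, and was 9 with DESeq2. Rpa2, Tk1, Rrm2 and Chaf1a passed in WT with each of the 8 libraries left out in turn.

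In the libraries labelled dKO, 18 of the 39 passed between Tim3+ and Tim3- cells, 16 higher and 2 lower, where 9.93% of all genes passed, 5.21% higher and 4.72% lower. Again 35 of 39 were positive, against 51% of all genes, with a median of 0.57 against 0.01. Groups did not overlap for 29 higher genes and 3 lower ones, against 26.2% and 24.7% of all genes. In most of the fits named next the calls over all genes fell as well. The count of 18 was the less stable. It fell to 1, Cdc45, without replicate 1 of Tim3- labelled dKO, and to 6 without replicate 2 of that group, the library with the lowest total. It was 8 without either WT Tim3+ library, 11 and 10 without replicate 1 and 2 of Tim3+ labelled dKO, and 9 with DESeq2. The median stayed between 0.51 and 0.57 with each library left out.

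The genes that passed in both genotypes numbered 15, which is 78.9% of those in WT and 83.3% of those in libraries labelled dKO. Of these 13 were higher in Tim3+ cells, Mcm3, Mcm5, Orc1, Cdc45, Rpa2, Fen1, Lig1, Tk1, Rrm2, Dut, Chaf1a, E2f1 and E2f2, and 2 were lower, Cdt1 and Ccne1. Mcm2, Cdc6, Pcna and Rfc5 passed in WT alone, and Orc6, Prim1 and Rrm1 in libraries labelled dKO alone. No gene of the 39 passed the test of the difference between the genotypes, given below, so these 7 are not shown to differ between them. By sign alone 34 genes were higher and 3 lower in both genotypes. The fold changes of the 39 genes in the 2 genotypes had a Pearson correlation of 0.884 and a Spearman correlation of 0.821. This describes genes, which are not independent replicates, in fits that share their estimate of the spread. The overlap, the sign counts and the correlations were not computed over all genes. The likeness of the genotypes is thus not shown to be particular to these 39.

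**Figure D2:**
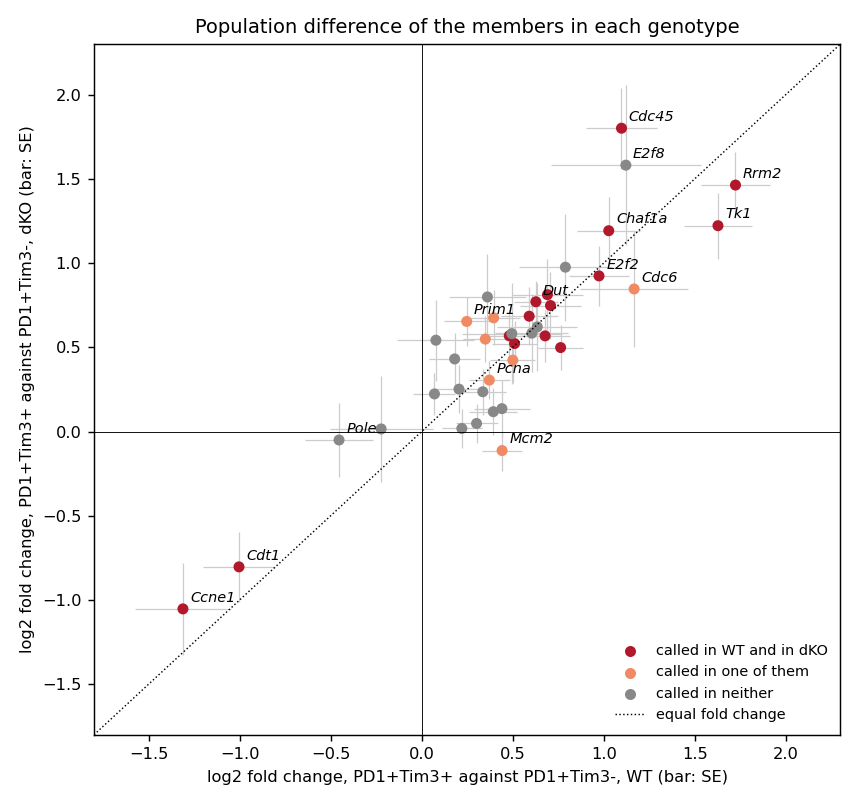
Log2 fold change of Tim3+ against Tim3- cells for each of the 39 genes, in WT (horizontal axis) and in libraries labelled dKO (vertical axis), with standard errors as bars and colours for genes that passed in both, one or neither genotype. Most genes lie in the upper right, with Rrm2, Tk1 and Cdc45 farthest out, and Ccne1 and Cdt1 lie in the lower left, with Pole nearer 0.

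The helicase genes Mcm2 to Mcm7 were all positive in WT, with 3 of 6 higher in Tim3+ cells (Mcm2, Mcm3 and Mcm5) and a median log2 fold change of 0.42. In libraries labelled dKO 2 of 6 were higher (Mcm3 and Mcm5), with a median of 0.18. Mcm6, the helicase gene with the highest CPM (chr1:128331590-128359664, reverse strand, GRCm38, as for all gene positions here), stood at 78.2 and 94.9 CPM in WT Tim3-, 113 and 118 in Tim3- labelled dKO, 104 and 109 in WT Tim3+, and 116 and 123 in Tim3+ labelled dKO. Both WT Tim3- libraries stood below the 6 others, which lay close together. The population difference of Mcm6 did not pass in WT, at 0.30 ± 0.12 (SE; adjusted p 0.0996), or in libraries labelled dKO, at 0.05 ± 0.12 (adjusted p 0.863). Mcm3 averaged 75.9 ± 13.8 CPM (SD, n = 2) in WT Tim3- and 105 ± 3.01 in WT Tim3+, and rose by 0.48 ± 0.13 on the log2 scale with an adjusted p of 0.0261. That value was 0.31 without replicate 1 of WT Tim3-. Its fold change in libraries labelled dKO was 0.57 ± 0.13, adjusted p 0.0262. Mcm4 and Mcm7 did not pass in either genotype, with fold changes from 0.12 to 0.39. The WT value of Mcm7 was 0.24 without replicate 1 of WT Tim3- and 0.55 without replicate 2 of that group. The WT calls of Mcm2, Mcm3 and Mcm5 were lost without replicate 1 of WT Tim3- or either WT Tim3+ library, at adjusted p 0.0756 to 0.252. Those of Mcm3 and Mcm5 in libraries labelled dKO were lost without either WT Tim3+ library, either Tim3- library labelled dKO or replicate 2 of Tim3+ labelled dKO, at 0.0534 to 0.221.

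Mcm2, a helicase subunit that also binds histones (chr6:88883474-88898780, reverse strand), was positive in WT and negative in libraries labelled dKO. It stood at 31.6 and 34.4 CPM in WT Tim3-, 42.5 and 44.1 in Tim3- labelled dKO, 42.7 and 46.3 in WT Tim3+, and 38.3 and 41.4 in Tim3+ labelled dKO. WT Tim3- was again the low pair, and the Tim3+ libraries labelled dKO stood below both of their Tim3- counterparts. The fold change of Tim3+ against Tim3- was 0.44 ± 0.11 in WT (adjusted p 0.0189) and -0.11 ± 0.12 in libraries labelled dKO (adjusted p 0.628). The difference between these was -0.55 ± 0.16 and did not pass over all genes (adjusted p 0.277), although it was the only one of the 39 at an unadjusted p under 0.05.

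Of the 8 genes of origin licensing and firing, 3 were higher and 1 lower in Tim3+ cells in each genotype. Cdc45, which encodes the protein that joins the loaded ring to make it a running helicase (chr16:18780447-18811987, reverse strand), stood at 5.40 and 5.80 CPM in WT Tim3-, 4.34 and 3.15 in Tim3- labelled dKO, 11.6 and 12.2 in WT Tim3+, and 14.7 and 13.3 in Tim3+ labelled dKO. The populations did not overlap in either genotype. Cdc45 rose 2.14-fold in WT, a log2 fold change of 1.10 ± 0.19 (adjusted p 0.0045), and 3.48-fold in libraries labelled dKO, 1.80 ± 0.24 (adjusted p 0.0016). The difference between the genotypes, 0.70 ± 0.32, did not pass (adjusted p 0.5). The WT call was lost without replicate 1 of WT Tim3-, at an adjusted p of 0.0553, and without replicate 2 of WT Tim3+, at 0.051. Orc1, of the complex that marks origins, rose by 0.69 ± 0.19 in WT (adjusted p 0.0323) and 0.81 ± 0.21 in libraries labelled dKO (adjusted p 0.0358). Cdc6, which helps to load the ring, rose in WT by 1.17 ± 0.30 (adjusted p 0.0213) from a mean of 3.76 ± 1.51 to 8.47 ± 2.36 CPM (SD, n = 2), and stood at 0.85 ± 0.34 in libraries labelled dKO (adjusted p 0.162). Orc6 rose in libraries labelled dKO by 0.67 ± 0.16 (adjusted p 0.0288) and stood at 0.40 ± 0.14 in WT (adjusted p 0.085). Mcm10, Gins1 and Gins2, which act at origin firing, were positive in both genotypes, from 0.49 to 0.63, and did not pass. With each library left out the WT value of Gins1 ran from 0.36 to 0.83 and that of Gins2 in libraries labelled dKO from 0.33 to 1.21, and in WT Gins1 passed in 3 and Gins2 in 2 of the 8 fits. Orc1 lost its WT call without any of the 4 WT libraries, at adjusted p 0.101 to 0.188, and its call in libraries labelled dKO without any but the WT Tim3- libraries, at 0.0619 to 0.150. Cdc6 lost its call without replicate 2 of WT Tim3- (0.102) or of WT Tim3+ (0.259). Orc6 lost its call without either Tim3- library labelled dKO, either WT Tim3+ library or replicate 2 of Tim3+ labelled dKO, at 0.0522 to 0.134.

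Cdt1, which loads the helicase with Cdc6 and is destroyed once copying begins (chr8:122568015-122573554, forward strand), was the licensing gene that ran the other way. It stood at 162 and 106 CPM in WT Tim3-, 108 and 134 in Tim3- labelled dKO, 67.3 and 66.8 in WT Tim3+, and 57.5 and 79.4 in Tim3+ labelled dKO. All Tim3- libraries stood above all Tim3+ libraries, with replicate 1 of WT Tim3- far above the rest. Cdt1 fell by 1.00 ± 0.20 on the log2 scale in WT (adjusted p 0.00691) and by 0.80 ± 0.21 in libraries labelled dKO (adjusted p 0.0351). Without replicate 1 of WT Tim3- the WT value was -0.65 with an adjusted p of 0.0723, and with robust empirical Bayes both calls were lost, at 0.0504 and 0.142. The WT call was also lost without replicate 1 or 2 of WT Tim3+, at 0.0656 and 0.066. In libraries labelled dKO the value passed without replicate 2 of Tim3+ labelled dKO and without either WT Tim3- library, and missed the threshold without each of the other 5, at up to 0.195.

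Among polymerase and primase genes none passed in WT, and Prim1 alone rose in libraries labelled dKO. Prim1, the catalytic subunit of primase, which lays the RNA primers (chr10:128015168-128030037, forward strand), stood at 22.2 and 22.8 CPM in WT Tim3-, 20.1 and 23.1 in Tim3- labelled dKO, 25.8 and 27.3 in WT Tim3+, and 31.1 and 35.3 in Tim3+ labelled dKO. Both Tim3+ libraries labelled dKO stood above the 6 others. Prim1 rose by 0.65 ± 0.14 in libraries labelled dKO (adjusted p 0.020) and stood at 0.25 ± 0.13 in WT (adjusted p 0.211). Its call was lost without replicate 1 or 2 of Tim3- labelled dKO, at 0.219 and 0.0609, and without replicate 2 of Tim3+ labelled dKO, at 0.0504. The difference between the genotypes, 0.41 ± 0.19, did not pass (adjusted p 0.519). Pold1, the catalytic subunit of polymerase delta and the polymerase gene with the highest CPM (chr7:44532746-44548849, reverse strand), stood at 26.7 and 38.6 CPM in WT Tim3-, 32.8 and 34.1 in Tim3- labelled dKO, 43.9 and 43.6 in WT Tim3+, and 34.1 and 39 in Tim3+ labelled dKO. Its replicates in WT Tim3- were farther apart than most group means, and it passed no comparison in the fit of all 8 libraries. Its population difference in WT was 0.44 ± 0.15 (adjusted p 0.0735). That value was 0.19 without replicate 1 of WT Tim3- and 0.71 without replicate 2 of that group. Pole, of polymerase epsilon, was negative in both genotypes, at -0.45 ± 0.19 in WT (adjusted p 0.125) and -0.05 ± 0.22 in libraries labelled dKO (adjusted p 0.929). Its WT value was -0.17 without replicate 1 of WT Tim3- and -0.66 without replicate 2 of that group, where it passed (adjusted p 0.047). Pola1, of the polymerase that works with primase, stood at 0.18 ± 0.14 in WT and 0.43 ± 0.16 in libraries labelled dKO (adjusted p 0.116).

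The sliding clamp gene Pcna (chr2:132249162-132253314, reverse strand), the most abundant of the 39, stood at 282 and 295 CPM in WT Tim3-, 345 and 347 in Tim3- labelled dKO, 354 and 392 in WT Tim3+, and 441 and 414 in Tim3+ labelled dKO. The 4 groups did not overlap, in that order. Pcna rose 1.29-fold in WT, 0.37 ± 0.11 on the log2 scale (adjusted p 0.046), and stood at 0.31 ± 0.11 in libraries labelled dKO (adjusted p 0.130). That WT call held in only 2 of the 8 fits that each left out a library, those without a Tim3+ library labelled dKO, and missed in the others at adjusted p 0.0772 to 0.303. The clamp loader genes Rfc3, Rfc4 and Rfc5 were positive in both genotypes. Of these Rfc5 rose in WT by 0.50 ± 0.12 (adjusted p 0.0186), a call lost without any of the 4 WT libraries at 0.0563 to 0.168, and the others ran from 0.08 for Rfc4 in WT to 0.80 for Rfc3 in libraries labelled dKO without passing.

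All 3 genes of single-strand binding and of joining the lagging strand rose in both genotypes. Rpa2, a subunit of the complex that coats single-stranded DNA (chr4:132768332-132778752, forward strand), stood at 30.3 and 35.4 CPM in WT Tim3-, 40.4 and 43.0 in Tim3- labelled dKO, 51.9 and 58.5 in WT Tim3+, and 62.7 and 54.1 in Tim3+ labelled dKO. Every Tim3+ library stood above every Tim3- library. Rpa2 rose by 0.76 ± 0.13 in WT (adjusted p 0.00341) and 0.50 ± 0.13 in libraries labelled dKO (adjusted p 0.0404). Fen1, the nuclease that trims the flaps between fragments (chr19:10199132-10204169, reverse strand), stood at 17.6 and 21.4 CPM in WT Tim3-, 19.0 and 22.0 in Tim3- labelled dKO, 29.8 and 31.8 in WT Tim3+, and 30.7 and 28.6 in Tim3+ labelled dKO. Here too the populations were apart, and the genotypes lay together within each. Fen1 rose by 0.68 ± 0.14 in WT (adjusted p 0.00748) and 0.57 ± 0.16 in libraries labelled dKO (adjusted p 0.0425). Lig1, the ligase that seals the fragments, rose by 0.59 ± 0.16 (adjusted p 0.0256) and 0.68 ± 0.17 (adjusted p 0.0319). Apart from that of Rpa2 in WT, each of these calls was lost when any of several libraries was left out, with its direction kept. The WT calls of Fen1 and Lig1 were lost without replicate 1 of WT Tim3- or either WT Tim3+ library, at adjusted p 0.0509 to 0.269. In libraries labelled dKO the calls of Rpa2 and Fen1 were lost without either Tim3- library labelled dKO, either WT Tim3+ library or replicate 1 of Tim3+ labelled dKO, at 0.0683 to 0.361, and that of Lig1 without replicate 1 of Tim3- or replicate 2 of Tim3+ labelled dKO or either WT Tim3+ library, at 0.0619 to 0.372. Without replicate 1 of Tim3- labelled dKO the value of Lig1 there was 0.41.

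Rrm2 and Tk1, of nucleotide supply, had the largest fold changes of the 39 genes in WT. Rrm2, the small subunit of ribonucleotide reductase, which is made for S phase (chr12:24708241-24714146, forward strand), stood at 8.25 and 11.6 CPM in WT Tim3-, 13.8 and 16.3 in Tim3- labelled dKO, 27.4 and 35.8 in WT Tim3+, and 39.7 and 40.6 in Tim3+ labelled dKO. The 4 groups did not overlap, and rose in that order. Rrm2 rose 3.30-fold in WT, 1.72 ± 0.19 on the log2 scale (adjusted p 4.64e-04), and 2.76-fold in libraries labelled dKO, 1.46 ± 0.20 (adjusted p 0.00171). Tk1, the thymidine kinase that salvages thymidine (chr11:117815526-117826092, reverse strand), stood at 6.26 and 6.22 CPM in WT Tim3-, 10.1 and 11 in Tim3- labelled dKO, 16.7 and 21.2 in WT Tim3+, and 25.9 and 22.7 in Tim3+ labelled dKO. Its 4 groups stood in the same order without overlap. Tk1 rose 3.09-fold in WT, 1.63 ± 0.19 (adjusted p 6.10e-04), and 2.33-fold in libraries labelled dKO, 1.22 ± 0.20 (adjusted p 0.00445). Without replicate 1 of Tim3- labelled dKO the calls of both genes in libraries labelled dKO were lost, at adjusted p 0.0834 for Rrm2 and 0.104 for Tk1, with fold changes of 1.31 and 1.14.

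Dut, which breaks down dUTP so that uracil stays out of DNA (chr2:125247190-125258608, forward strand), stood at 76.6 and 92.7 CPM in WT Tim3-, 91.6 and 95.5 in Tim3- labelled dKO, 127 and 133 in WT Tim3+, and 169 and 149 in Tim3+ labelled dKO. The Tim3- genotypes overlapped, and the Tim3+ genotypes did not. Dut rose by 0.63 ± 0.12 in WT (adjusted p 0.00642) and 0.77 ± 0.12 in libraries labelled dKO (adjusted p 0.00483). The WT call was lost without replicate 1 of WT Tim3- or without either WT Tim3+ library, at adjusted p 0.0523 to 0.0745, and the other call without replicate 1 of Tim3- labelled dKO, at 0.0865. Rrm1, the large reductase subunit, rose by 0.55 ± 0.14 in libraries labelled dKO (adjusted p 0.0326), a call lost without any of the 4 libraries labelled dKO at 0.0585 to 0.163, and stood at 0.35 ± 0.13 in WT (adjusted p 0.0814). Tyms, which makes the thymidine nucleotide afresh, differed little, at 0.07 ± 0.12 in WT and 0.22 ± 0.12 in libraries labelled dKO. Ung, the glycosylase that removes uracil from DNA (chr5:114130386-114139323, forward strand), stood at 42.7 and 49.1 CPM in WT Tim3-, 54.1 and 50.4 in Tim3- labelled dKO, 58.7 and 56.8 in WT Tim3+, and 54.7 and 69.3 in Tim3+ labelled dKO. The populations did not overlap, but neither difference passed, at 0.34 ± 0.13 (adjusted p 0.100) and 0.24 ± 0.14 (adjusted p 0.334).

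**Figure D3:**
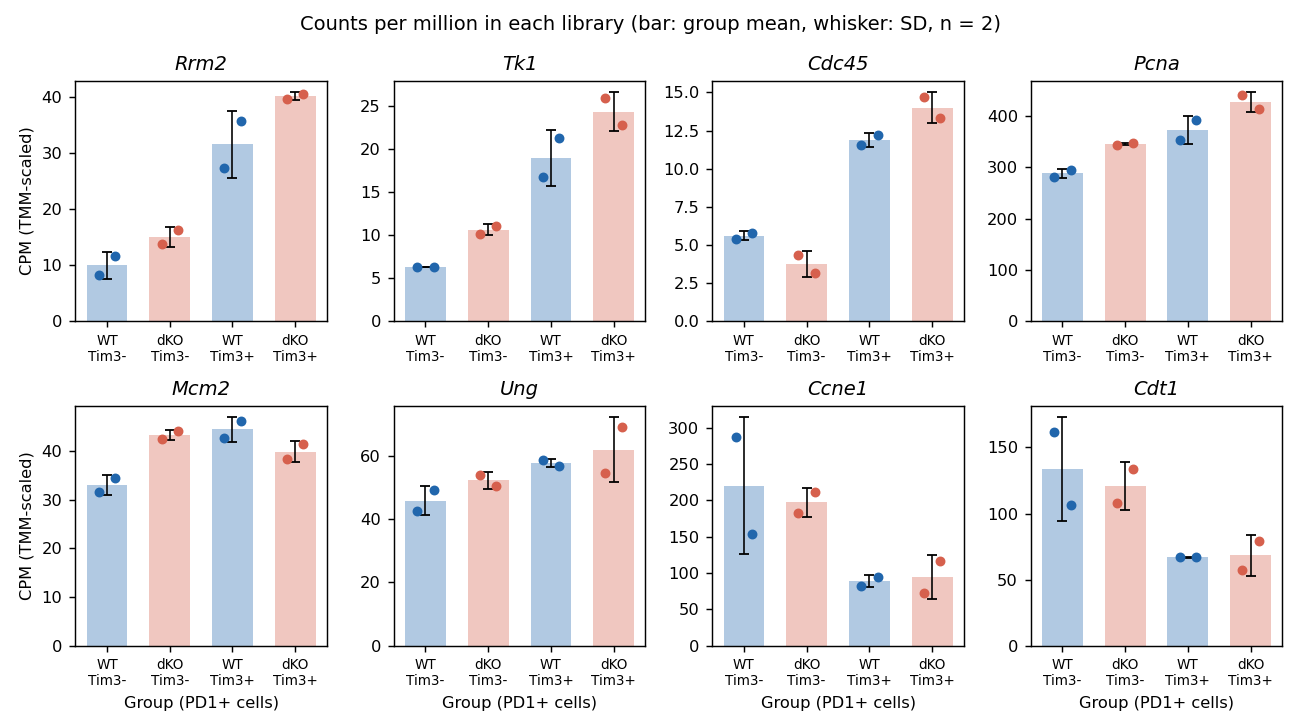
CPM of 8 of the genes in each library (points), with the group mean (bar) and SD of 2 libraries (whisker), in WT (blue) and labelled dKO (red). Rrm2, Tk1 and Cdc45 stand higher in both Tim3+ groups, Mcm2 is lowest in WT Tim3-, and Ccne1 and Cdt1 are lower in Tim3+ with replicate 1 of WT Tim3- far above replicate 2.

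Of the genes for histone supply and deposition, Chaf1a rose in both genotypes. Chaf1a, the large subunit of the chaperone that places histones behind the fork (chr17:56040439-56072289, forward strand), stood at 9.95 and 8.08 CPM in WT Tim3-, 8.69 and 8.92 in Tim3- labelled dKO, 17.3 and 19.6 in WT Tim3+, and 21.8 and 18.3 in Tim3+ labelled dKO. The populations were far apart, and the genotypes overlapped within each. Chaf1a rose 2.04-fold in WT, 1.03 ± 0.17 (adjusted p 0.00376), and 2.28-fold in libraries labelled dKO, 1.19 ± 0.20 (adjusted p 0.00655), the latter lost without replicate 1 of Tim3- labelled dKO at 0.105. Its partner Chaf1b had fold changes of 0.79 ± 0.26 (adjusted p 0.057) and 0.98 ± 0.32 (adjusted p 0.081). With each library left out the WT value of Chaf1b ran from 0.36, without replicate 1 of WT Tim3-, to 1.25, without replicate 2 of that group, and it passed in 3 of the 8 fits. Slbp, which binds and stabilises histone mRNA (chr5:33634952-33652574, reverse strand), stood at 95.1 and 98.9 CPM in WT Tim3-, 98.8 and 116 in Tim3- labelled dKO, 110 and 116 in WT Tim3+, and 112 and 103 in Tim3+ labelled dKO. These values overlapped between the populations in libraries labelled dKO, and Slbp passed no comparison.

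E2f1 and E2f2 rose while Ccne1 fell. E2f2, an E2F that activates transcription (chr4:136172394-136196057, forward strand), stood at 10.5 and 10.8 CPM in WT Tim3-, 14.8 and 13.6 in Tim3- labelled dKO, 18.2 and 22.9 in WT Tim3+, and 25.7 and 29.2 in Tim3+ labelled dKO. Its 4 groups did not overlap. E2f2 rose by 0.97 ± 0.17 in WT (adjusted p 0.00396) and 0.92 ± 0.18 in libraries labelled dKO (adjusted p 0.0111). The first call was lost without replicate 2 of WT Tim3+ (0.0569), the other without replicate 1 or 2 of Tim3- labelled dKO (0.105 and 0.0687). E2f1, also an activator (chr2:154559407-154569892, reverse strand), stood at 9.24 and 10.2 CPM in WT Tim3-, 9.23 and 7.35 in Tim3- labelled dKO, 14.8 and 16.4 in WT Tim3+, and 14.7 and 14.4 in Tim3+ labelled dKO. All Tim3+ values lay above all Tim3- values, with the genotypes close together in Tim3+. E2f1 rose by 0.71 ± 0.16 (adjusted p 0.0137) and 0.75 ± 0.20 (adjusted p 0.039). Its WT call was lost without replicate 1 of WT Tim3- or either WT Tim3+ library, at 0.0613 to 0.141, and the other without any but the WT Tim3- libraries, at 0.065 to 0.158. E2f8, a repressor and the least abundant of the 39, had fold changes of 1.12 ± 0.41 and 1.58 ± 0.47 that did not pass (adjusted p 0.0872 and 0.0596), with a single count in replicate 2 of Tim3- labelled dKO.

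Ccne1, which encodes cyclin E1 (chr7:38097984-38107534, reverse strand), stood at 287 and 153 CPM in WT Tim3-, 183 and 212 in Tim3- labelled dKO, 82.8 and 94.8 in WT Tim3+, and 73.0 and 116 in Tim3+ labelled dKO. Every Tim3- library stood above every Tim3+ library, and the replicates of WT Tim3- were the farthest apart. Ccne1 fell by 1.31 ± 0.27 in WT (adjusted p 0.00768) and by 1.05 ± 0.27 in libraries labelled dKO (adjusted p 0.0357). Without replicate 1 of WT Tim3- the WT value was -0.78 with an adjusted p of 0.0689. The WT call was also lost without replicate 1 or 2 of WT Tim3+, at 0.0810 and 0.0577, and with robust empirical Bayes both calls were lost, at 0.0992 and 0.216. In libraries labelled dKO the call was kept without either WT Tim3- library or without replicate 2 of Tim3+ labelled dKO, and was lost without each of the other 5, at up to 0.178. Ccne2, of cyclin E2, stood at 4.25 to 8.19 CPM in the 8 libraries and passed no comparison.

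Other genes showed the library order of Ccne1. Chtf18, of an alternative clamp loader, stood at 164 and 91.4 CPM in WT Tim3-, 99.4 and 138 in Tim3- labelled dKO, 37.7 and 49.8 in WT Tim3+, and 36.1 and 61.7 in Tim3+ labelled dKO. E2f7, a repressor related to E2f8, stood at 222 and 126, 141 and 184, 53.1 and 69.3, and 42.4 and 83.3 CPM in the same order of groups. In Ccne1, Chtf18 and E2f7 alike, the 8 libraries took the same order from highest to lowest, and Cdt1 departed from it only between the WT Tim3+ replicates, at 67.3 and 66.8 CPM. This likeness was picked out after the values were seen.

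Some counts are uncertain because the genes overlap another protein-coding gene and no source states the strand setting. This touches 12 of the 39, Mcm7, Orc6, Cdt1, Cdc45, Gins2, Rfc4, Rfc5, Fen1, Lig1, Tk1, Chaf1a and Ccne2.

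Between genotypes, none of the 39 genes passed in Tim3- cells, where 0.0459% of all genes passed, 0.0153% higher and 0.0306% lower. DESeq2 and limma-voom also called 0 of them. At an unadjusted p under 0.05 there were 7, all higher in the libraries labelled dKO, against 8.27% of all genes, 4% higher and 4.27% lower. These were Mcm6 at 0.42 ± 0.12, Mcm2 at 0.39 ± 0.12, Tk1 at 0.74 ± 0.23, Rrm2 at 0.58 ± 0.23, Rpa2 at 0.34 ± 0.14, Pcna at 0.26 ± 0.12 and E2f2 at 0.44 ± 0.20 on the log2 scale (SE). Their adjusted p ran from 0.424 for Mcm6 to 0.603 for E2f2. Of the 39, 25 were positive, against 49.1% of all genes, with a median of 0.11 against -0.01. Both libraries labelled dKO stood above both of WT for 9 genes and below for 2, against 20.3% and 21% of all genes. All 6 helicase genes were positive, from 0.07 to 0.42, while the 8 licensing and firing genes split evenly, from -0.47 for Cdc45 to 0.35 for Orc1. The median was 0.18 without replicate 2 of WT Tim3- and fell to 0.07 without replicate 1 of that group and 0.06 without replicate 2 of Tim3- labelled dKO. The Y-linked gene Ddx3y stood at 31.4 and 24.9 CPM in WT Tim3- and 49.8 and 48.8 in Tim3- labelled dKO, and Xist, the RNA of the silenced X chromosome, at 955 and 854 against 690 and 684 CPM. Both thus moved with the genotype label, and their part in the values of the 39 genes was not tested. Ddx3y also passed between Tim3+ and Tim3- cells in WT, at -0.56 ± 0.13 (adjusted p 0.0141). In libraries labelled dKO it did not, at 0.22 ± 0.13 (adjusted p 0.334), and Xist passed in neither genotype. The part of Ddx3y in the population results was not tested either.

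In Tim3+ cells none of the 39 passed between genotypes either, where 0.627% of all genes passed, 0.26% higher and 0.367% lower, and DESeq2 and limma-voom again called 0. The 6 at an unadjusted p under 0.05 were all higher in the libraries labelled dKO, against 12% of all genes, 7.1% higher and 4.91% lower. They were Orc1 at 0.47 ± 0.17, E2f2 at 0.39 ± 0.15, Prim1 at 0.32 ± 0.12, Lig1 at 0.37 ± 0.15, Dut at 0.29 ± 0.12 and Pola1 at 0.31 ± 0.14, with adjusted p from 0.293 to 0.400. Positive values were seen for 30 of 39, against 51% of all genes, with a median of 0.17 against 0.01. For 19 genes both libraries labelled dKO stood above both of WT, and for 3 below, against 20.7% of all genes in each direction. All 5 nucleotide supply genes and all 4 clamp and clamp loader genes were positive, from 0.11 to 0.33. In both populations 19 genes were positive and 3 negative, which was not counted over all genes. Other genes moved with the genotype label here: Ddx3y stood at 19.7 and 18.9 CPM in WT Tim3+ and 56.8 and 58.0 in Tim3+ labelled dKO, Xist at 910 and 922 against 679 and 671 CPM, and Eomes at 57.6 and 55.8 against 35.2 and 26.8 CPM. The 4 natural killer cell markers, mostly Eomes, summed to 63.4 to 74.1 CPM in the WT libraries and 38.6 to 46.7 in those labelled dKO, with Ncr1 at no more than 0.214. All 4 tested erythroid genes were positive here at an unadjusted p under 0.05, and 0 passed. The part of all these genes in the genotype values of the 39 was not tested, and the OT-I receptor and the genotype cannot be told apart.

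**Figure D4:**
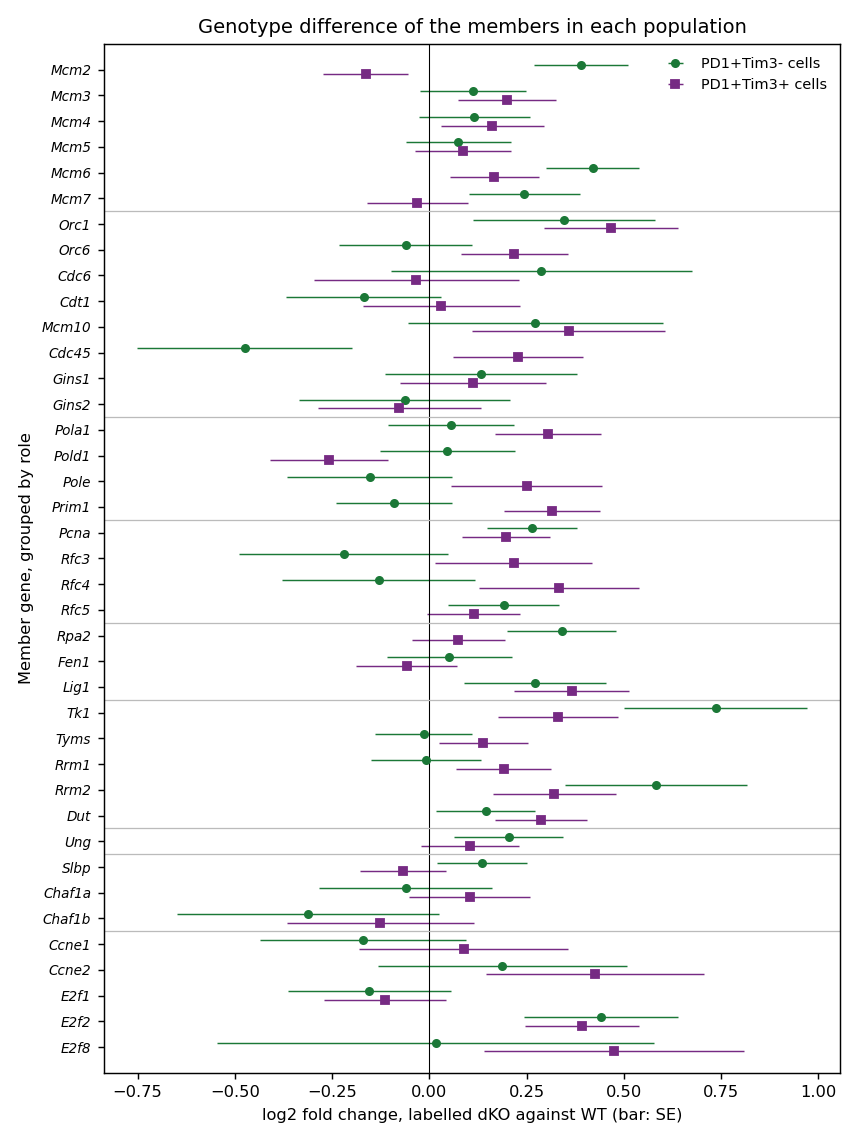
Log2 fold change of libraries labelled dKO against WT for each of the 39 genes (rows, by role), in Tim3- cells (green circles) and Tim3+ cells (purple squares), with standard errors as bars. Most points lie to the right of 0, 25 of 39 in Tim3- and 30 of 39 in Tim3+, and none passed the test over all genes.

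The difference of the population effect between the genotypes was tested as an interaction, and 0 of the 39 genes passed, where 0% of all 13073 genes passed. DESeq2 and limma-voom called 0 of the 39 as well. At an unadjusted p under 0.05 there was 1, Mcm2, against 10.1% of all genes, 5.87% higher and 4.22% lower. The median of the 39 was 0.09, against 0.00 over all genes, and turned to -0.06 without replicate 2 of WT Tim3-. A difference that misses the threshold does not show that the genotypes act alike, and the standard errors of the 39 genes, 0.16 for Mcm2 and 0.67 for E2f8, leave room for sizeable differences.

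Other genes of the pathway were followed as lists beside the 39, and their counts are to be read against all genes, of which 8.25% rose and 8.76% fell in WT and 5.21% rose and 4.72% fell in libraries labelled dKO. Over all genes the median was 0.01 in both. Of 32 further replication factors, 2 rose and 1 fell in Tim3+ cells of WT, with a median of 0.16, and 6 rose in libraries labelled dKO, with a median of 0.15. Ticrr, which helps to fire origins, rose by 1.14 ± 0.30 in WT (adjusted p 0.0238), and Rfc1, the large clamp loader subunit, fell by 0.38 ± 0.11 (adjusted p 0.0342). Rpa3, a partner of Rpa2, and Gins3, a partner of Gins1 and Gins2, rose in libraries labelled dKO, at 0.66 ± 0.14 (adjusted p 0.0176) and 1.29 ± 0.29 (adjusted p 0.0226). Of 25 genes of fork protection and replication-linked repair, 4 rose and 1 fell in WT and 6 rose and 1 fell in libraries labelled dKO, the gene that fell being Chtf18 in both. Of 18 further nucleotide synthesis genes, 2 rose and 1 fell in WT and 1 rose and 2 fell in libraries labelled dKO, with medians of -0.01 and -0.22. Cad, of pyrimidine synthesis, fell by 0.47 ± 0.14 in WT (adjusted p 0.0421). Shmt1 and Gart, of the folate and purine pathways, fell by 0.74 ± 0.15 and 0.42 ± 0.11 in libraries labelled dKO (adjusted p 0.0143 and 0.0429).

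Of 10 genes that copy chromatin and methylation, 2 rose and 1 fell in WT and 1 rose in libraries labelled dKO. Asf1b, a histone chaperone that hands histones to the Chaf1 complex, rose in both, by 1.39 ± 0.19 (adjusted p 0.00146) and 0.96 ± 0.20 (adjusted p 0.0154). Nasp, also a histone chaperone, fell by 0.39 ± 0.12 in WT (adjusted p 0.0478). Of 24 tested genes that control the passage from G1 to S, 6 rose and 2 fell in each genotype, against the same shares of all genes. The cyclin gene Ccnd3 and the inhibitor gene Cdkn1a (p21), which holds cyclin-dependent kinases back, both rose, Cdkn1a by 1.30 ± 0.12 (adjusted p 1.53e-04) and 1.58 ± 0.13 (adjusted p 3.75e-05). Myc fell by 0.42 ± 0.11 (adjusted p 0.0253) and 0.79 ± 0.12 (adjusted p 0.00308), and E2f7 was the other that fell in each genotype. In none of these lists did a gene pass between genotypes or in the interaction, by edgeR, and 2 to 4 of each list but the chromatin genes, with 1, had an unadjusted p under 0.05 in each genotype comparison, against 8.27% of all genes in Tim3- and 12% in Tim3+ cells.

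A further list, named for mitosis, includes Mki67, Ccna2 and Top2a and is not limited to genes that act after S phase. Of its 32 genes, 20 rose in Tim3+ cells of WT and 22 in libraries labelled dKO, where 8.25% and 5.21% of all genes rose. None fell, and the medians were 0.92 and 1.26, against 0.48 and 0.57 for the 39 replication genes. Mki67, the gene of the proliferation marker Ki-67, stood at 35.5 and 36.7 CPM in WT Tim3-, 34.4 and 40.4 in Tim3- labelled dKO, 74.5 and 93.3 in WT Tim3+, and 113 and 127 in Tim3+ labelled dKO. The Tim3- libraries lay together, and the Tim3+ libraries labelled dKO stood above both of WT. Between genotypes in Tim3+ cells 29 of 32 mitosis genes were positive, against 51% of all genes, with a median of 0.42, and 0 passed. At an unadjusted p under 0.05 there were 12, against 12% of all genes. No test of the difference between the lists was made.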

How the data were processed

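The authors deposited 1 table of raw counts by gene symbol, a column for each of the 8 libraries. The submitters' processing notes name mm10, cutadapt 1.18 and Bowtie2 2.2.5. Neither the counting tool nor the strand setting is stated. The 1 line without a gene name held the column totals and was left out. The 39 members and all lists were chosen with earlier results of these data known. Counts were tested with edgeR 4.0.16 (R 4.3.3) in its quasi-likelihood F test, TMM-scaled, after its default low-count filter over the 4 groups. The 8 libraries entered 1 fit of group means with 4 residual degrees of freedom, and p-values were adjusted over all 13073 genes by Benjamini-Hochberg. SE is the log2 fold change divided by the root of its F. The script was tested on simulated data. Whether the replicates of a group shared a litter or day is not given, so p-values measure the spread between these samples. The labels do not say whether same-numbered Tim3- and Tim3+ libraries came from 1 mouse. The main fit did not pair them. Gene positions are from GENCODE M21. Alternatives were DESeq2 1.42.0, limma-voom 3.58.1, other scaling and filters, robust empirical Bayes, a replicate block and leaving out each library. Values were given in every library for the 12 called members with the smallest p and the member of highest CPM in each role, and for Mcm2, added after its values were seen. From each further list came at most 3 called genes per direction and comparison, by smallest p. Some genes that this rule names are not reported here.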

Additional observations from a re-analysis of the deposited data

How the results depend on the processing

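No direction was reversed among the 37 called and 35 further gene results at an unadjusted p under 0.05, under the alternatives run. Of the 39 genes, DESeq2 called 9 in the WT population comparison and 9 in that of libraries labelled dKO, against 19 and 18. With each library left out these counts ran from 4 to 25 and from 1 to 19. Replicate differences of compared groups correlated at -0.06, -0.02, -0.05 and -0.01 over genes. With 1 difference per group, this cannot decide whether same-numbered libraries came from 1 mouse. With a replicate block 17 genes passed in WT and 9 in libraries labelled dKO, and with a replicate block within genotype 16 and 11. Genotype and interaction counts were 0 under every alternative run. The WT median ran from 0.36 to 0.60, and that of the interaction from -0.062 to 0.12, with each library left out. Without Rn45s and Rn18s in the total, the mean share of counts in the 39 genes was 0.162% in WT Tim3- and 0.216% in WT Tim3+. In libraries labelled dKO it was 0.181% in Tim3- and 0.228% in Tim3+. Over all genes, with each library left out, the counts ran from 433 to 2773 and from 132 to 1392 in the population comparisons (2223 and 1298), from 0 to 31 and 6 to 413 between genotypes (6 and 82), and from 0 to 323 in the interaction (0). DESeq2 called 1216, 856 and 104 in the population comparisons and the interaction, and without the low-count filter 232, 486 and 331 passed between genotypes and in the interaction. Robust empirical Bayes gave 56 between genotypes in Tim3- cells and 4 in the interaction, limma-voom 0 in Tim3- cells, a replicate block 0 and 40 between genotypes and 716 in libraries labelled dKO, and fits of the 4 libraries compared 3 and 38. With 2 libraries per group, the test rests on groups that vary alike, and small differences of genes with few counts were not detectable at this depth. The groups may not have varied alike. A chi-square between replicates, per tested gene, was 17.4 in WT Tim3- and 3.47 in WT Tim3+. It was 3.11 in Tim3- and 10.9 in Tim3+ labelled dKO. This chi-square was taken on raw counts, so it rises with depth and does not compare spread alone. The median SD of the 39 genes, as a percent of the mean, was 13.5% and 6.17% in WT, and 10.5% and 7.09% in libraries labelled dKO. WT Tim3- was highest by both measures, and the other groups were ordered differently.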

Other observations

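Most histone genes that are copied into RNA in S phase, whose mRNA Slbp binds, have symbols that begin with Hist in the deposited table. Symbols of this form were summed, whether or not each is such a gene. Their summed level was 101 and 106 CPM in WT Tim3-, 103 and 97.6 in Tim3- labelled dKO, 95.2 and 113 in WT Tim3+, and 147 and 207 in Tim3+ labelled dKO. The 6 other libraries lay together, and both Tim3+ libraries labelled dKO stood above them, with replicates far apart. This group of genes was chosen after its values were seen, and the difference was not tested.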
